A study of Mus musculus with 9 samples.

Results

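Lad1, Ccdc141, Serpine2, Phlda1, Arhgef4, Mturn, L1cam, Hyls1 and Tbc1d30 are 9 genes that lie outside the standard lists of T cell genes and whose mRNA was higher in CD4+ T cells given macrophage exosomes. They were chosen from these same libraries for being higher than PBS in 1 or both exosome groups, by a rule that set no cut-off. They are 9 of 55536 genes in the count table and 9 of the 14684 genes with enough reads to test. All 9 passed that filter, and in the PBS cultures too none fell under 6.23 CPM (counts scaled to library size).

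The libraries came from splenic CD4+ T cells of wild-type male mice aged 6 to 12 weeks. Every culture was activated with beads coated with anti-CD3 and anti-CD28 and with murine IL-2 at 5 ng/mL, so all groups, PBS included, hold activated cells. For 18 h the cultures received exosomes of BMDM from ApoE-deficient mice (EKO_exo), exosomes of BMDM from wild-type mice (WT_exo), or PBS with no exosomes. The exosome dose was 2e+09 particles per mL, and each group had 3 cultures. BMDM usually stands for macrophages grown from bone marrow. The ApoE deficiency lies in the mice that gave the exosomes and not in the T cells.

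Exosomes are small membrane vesicles that cells release and other cells bind or take up, and those of macrophages carry proteins, lipids and RNA. Activated CD4+ T cells grow, rebuild their cytoskeleton and adhesion, and divide. Most of the 9 genes are known from other settings, such as epithelium, neurons, centrioles and secreted protease inhibitors, and their products act in anchoring, adhesion, Rab GTPase control and blood protease inhibition.

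Total counts ranged from 25792975 to 32971791 per library. The 3 EKO_exo libraries had 19038 to 19518 genes with a count, against 19989 to 20568 in the other 6. EKO_exo replicate 3 stood apart on principal component 1 and EKO_exo replicate 1 on component 2. On component 3 EKO_exo replicate 2 was highest at 36.4, with WT_exo at 10.9 to 12.9 and PBS lowest at -25.3 to -18.2. EKO_exo replicates 1 and 3 lay at -5.4 and -2.9, below WT_exo and above PBS. The CD4+ T cell label fitted the markers: summed over 13 genes such as Cd3e, Cd4 and Trac they stood at 4901 to 4968 CPM in EKO_exo, 4667 to 4790 CPM in WT_exo and 4684 to 4815 CPM in PBS. Summed macrophage markers (23 genes) stood at 103 to 114 CPM in EKO_exo and 103 to 108 CPM in WT_exo. In PBS they stood at 86.3 to 98.4 CPM, below both exosome groups. Ctss was the largest part of that sum, averaging 54.7 CPM in EKO_exo, 54.1 CPM in WT_exo and 46.3 CPM in PBS. Lyz2 and Apoe also averaged higher in both exosome groups than in PBS, without a call. Cd68 went the other way, at 7.03 CPM in each exosome group and 8.07 CPM in PBS, and was not called. The macrophage-defining C1qa was at 0 counts in all libraries. Adgre1, which encodes F4/80, averaged 0 CPM in EKO_exo, 0.0310 CPM in WT_exo and 0.0352 CPM in PBS. Of the 10 macrophage markers tested, Csf1r and Ctss were called higher in EKO_exo than in PBS and none in WT_exo. Of all genes, 2.21% were called higher in EKO_exo and 1.83% in WT_exo. Summed B cell markers (17 genes) stood at 705 to 716 CPM in EKO_exo, 612 to 671 CPM in WT_exo and 609 to 656 CPM in PBS. The part of these markers in the values below was not tested. In bulk RNA, fewer cells of a type and less RNA per cell cannot be told apart.

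Across the 9 genes, all 6 exosome libraries lay above all 3 PBS libraries for every gene. That pattern held for 4.9% of all genes tested (9.94% for EKO_exo against PBS alone and 10.6% for WT_exo), and since the genes were chosen on these libraries nothing is read from the count. By the edgeR quasi-likelihood test with Benjamini-Hochberg adjustment over all genes, 8 of 9 were called higher in EKO_exo than in PBS, where 2.21% of all genes were. In WT_exo 6 of 9 were called higher than in PBS, where 1.83% of all genes were, and 5 of 9 were called in both, where 1.1% of all genes were. Called lower were 0 of 9 in EKO_exo, with 2.87% of all genes, and 0 of 9 in WT_exo, with 3.14%. The choice of genes fixed these counts, and both comparisons share the PBS libraries, so no p is given for a member against PBS. The median log2 fold change of the 9 was 0.57 in EKO_exo and 0.47 in WT_exo, with medians over all genes of 0.00 in each. With EKO_exo replicates 1 and 3 left out, which leaves 1 EKO_exo library, Lad1, Ccdc141 and Tbc1d30 were the 3 still called, and the log2 fold changes of the 9 lay between 0.29 and 0.57.

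**Figure D1:**
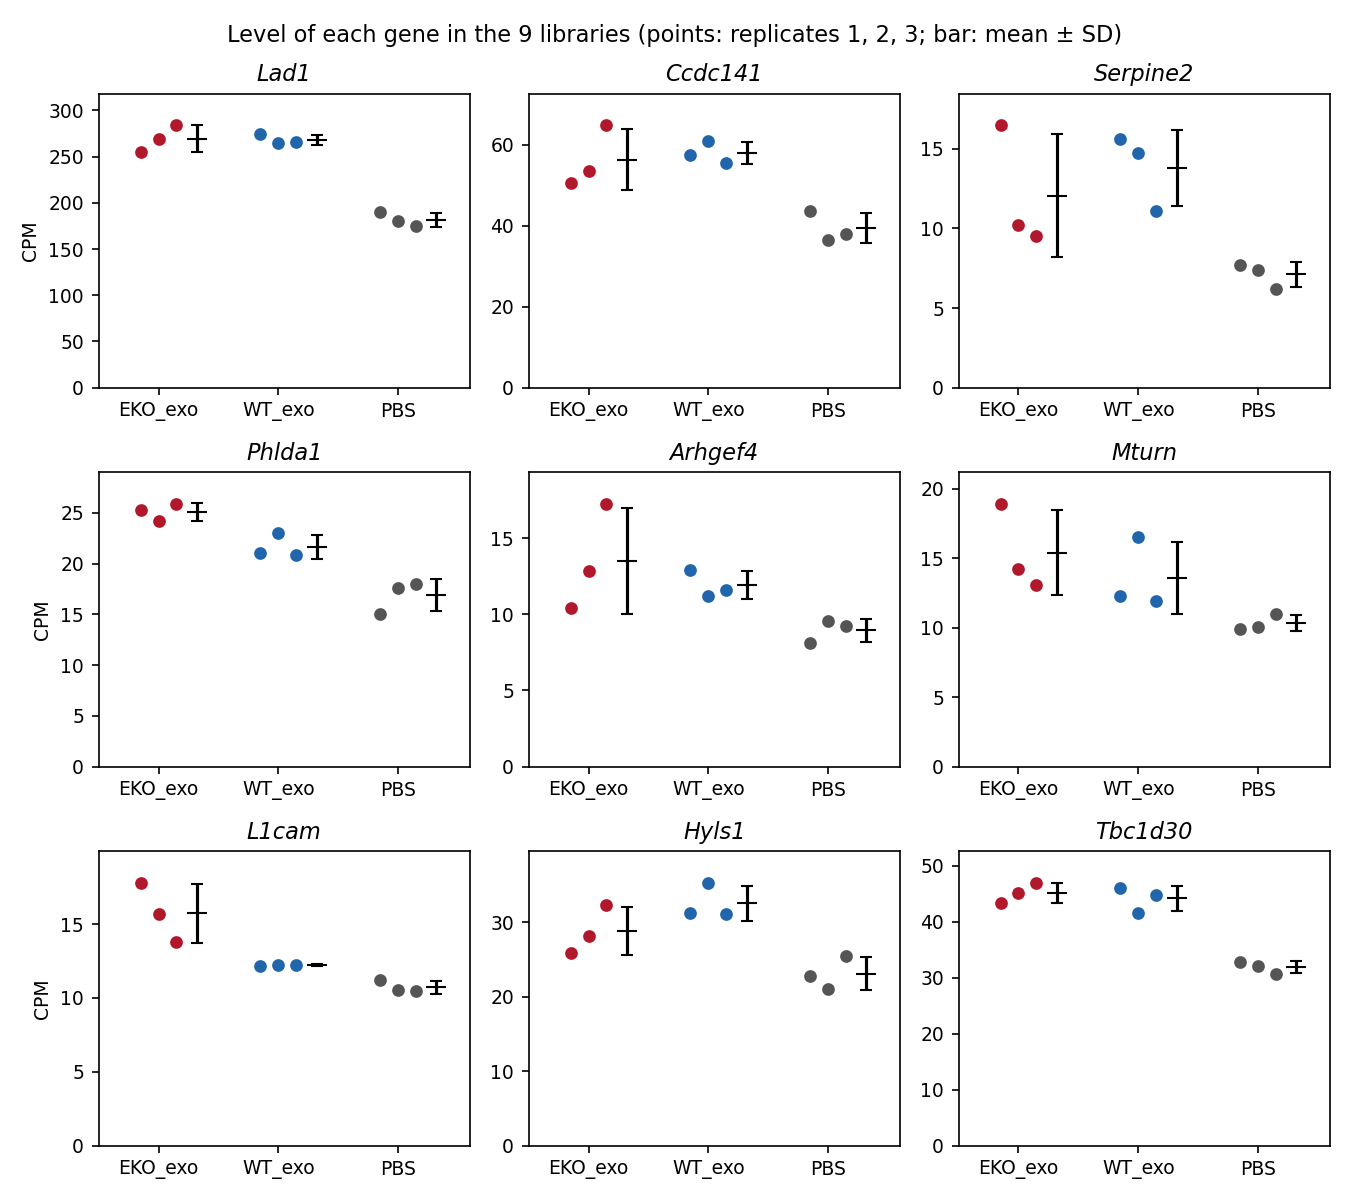
Level of each gene in CPM (y axis, from 0) in the 9 libraries by group; points are replicates 1 to 3 and the bar is mean ± SD. Every point of EKO_exo and WT_exo lies above every PBS point, and Lad1 (269, 268 and 181 CPM on average in EKO_exo, WT_exo and PBS) has the highest levels.

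**Figure D2:**
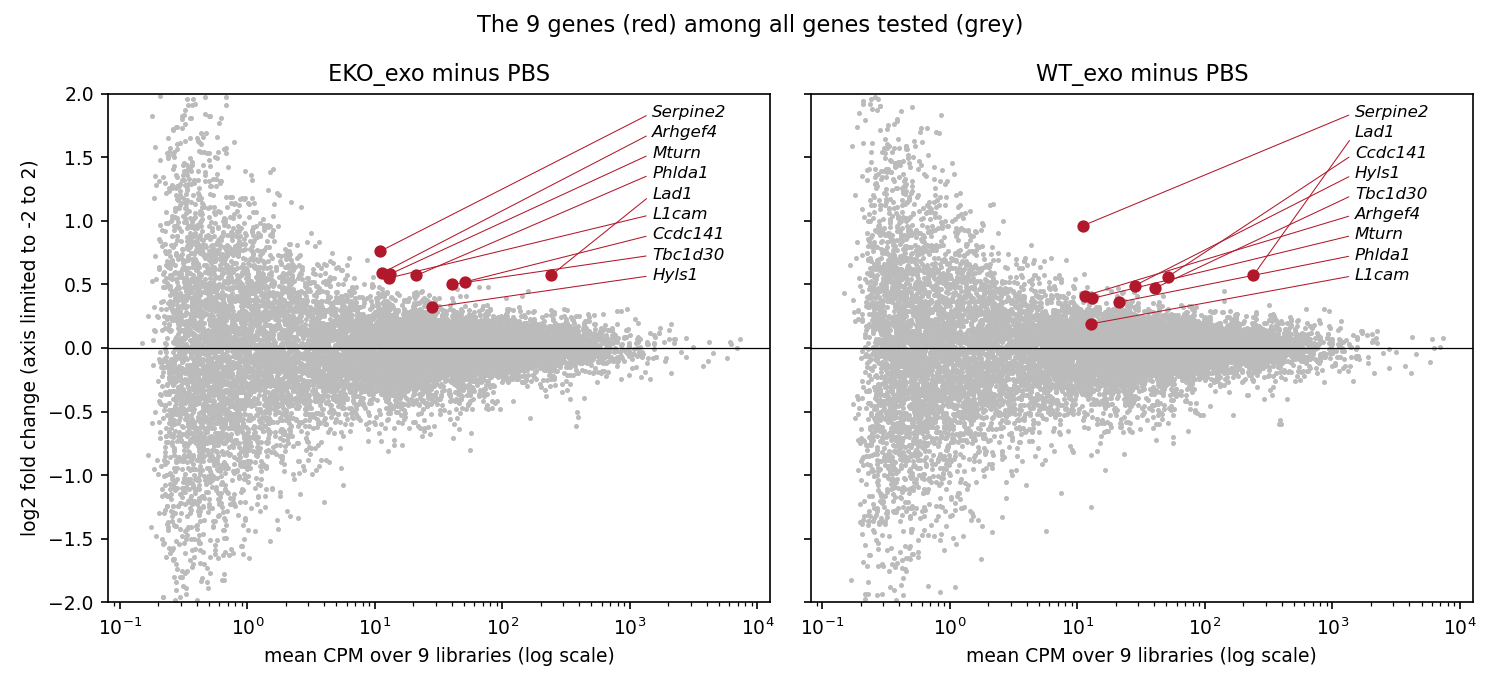
Log2 fold change against PBS (y axis, limited to -2 to 2) by mean CPM over the 9 libraries (x axis, log scale) for EKO_exo (left) and WT_exo (right); red points are the 9 genes and grey points the other genes tested. Serpine2 lies highest of the 9 in both panels (0.76 and 0.96), and Lad1 (0.57 in both) is the most abundant.

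Lad1 encodes ladinin, a protein first known from the anchoring of basement membrane beneath the epidermis and also found on actin in epithelial cells. The gene lies at chr1:135818598-135833342 on the plus strand (GRCm38, as are all positions here). Lad1 stood at 255, 269 and 284 CPM in EKO_exo and at 275, 264 and 266 CPM in WT_exo, against 189.9, 179.8 and 174 CPM in PBS. The exosome groups covered the same range and both lay clear of PBS. The mean was 269 ± 14.6 CPM in EKO_exo, 268 ± 5.51 CPM in WT_exo and 181 ± 7.88 CPM in PBS (SD, n = 3 each). The log2 fold change over PBS was 0.57 ± 0.043 (SE) in EKO_exo and 0.57 ± 0.043 in WT_exo, and leaving out any 1 library kept them between 0.53 and 0.61 and between 0.54 and 0.60. EKO_exo and WT_exo differed by 0.01 ± 0.042 on the log2 scale (95% confidence interval -0.08 to 0.09, adjusted p = 0.993). Differences over 0.09 either way therefore lie outside the interval for Lad1, the narrowest of the 9.

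The window around the Lad1 start site in RefSeq (GRCm38.p6, chr1:135818348-135818647, plus strand, 250 bases before to 50 after the start) is printed because Lad1 is the most abundant of the 9. Its GC content was 60.3%, against a median of 52.7% over 32851 such windows.
Lad1 promoter: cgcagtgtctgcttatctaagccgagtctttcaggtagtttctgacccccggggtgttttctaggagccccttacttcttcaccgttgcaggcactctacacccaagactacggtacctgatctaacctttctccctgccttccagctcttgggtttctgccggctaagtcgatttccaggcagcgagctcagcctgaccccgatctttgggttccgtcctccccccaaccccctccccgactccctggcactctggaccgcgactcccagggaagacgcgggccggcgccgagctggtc
Both strands were searched for 9 motifs: the TATA box (TATAAA), the CAAT box (CCAAT), the GC box (GGGCGG), the E-box (CACGTG), the AP-1 motif (TGANTCA), the cyclic AMP response element (TGACGTCA), the NFAT core (GGAAA), the ETS motif (CCGGAAG) and the NF-kB motif. This window held only the NFAT core, 77 to 73 bases before the start. That core is in 61.3% of all windows.

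Tbc1d30 encodes a GTPase-activating protein of the TBC family that acts on RAB8A, a Rab GTPase of membrane traffic (chr10:121263820-121351278, minus strand). Its level was 43.4, 45.1 and 46.9 CPM in EKO_exo and 46.0, 41.6 and 44.8 CPM in WT_exo, against 32.7, 32.1 and 30.7 CPM in PBS. As for Lad1, the exosome groups overlapped and PBS lay below both. On the log2 scale the difference from PBS was 0.50 ± 0.076 in EKO_exo and 0.47 ± 0.076 in WT_exo, with 0.03 ± 0.075 between EKO_exo and WT_exo (interval -0.12 to 0.18, adjusted p = 0.966). Among genes that averaged 5 CPM or more, Tbc1d30 followed Lad1 most closely over the 9 libraries (Pearson r = 0.991 of log2 CPM, given with no p).

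Ccdc141 encodes a coiled-coil protein that binds DISC1 and myosin II in migrating mouse neurons (chr2:77009902-77170636, minus strand). It stood at 50.7, 53.6 and 64.9 CPM in EKO_exo and at 57.5, 61.0 and 55.6 CPM in WT_exo, against 43.8, 36.6 and 38.0 CPM in PBS. EKO_exo replicate 3 was the highest library and PBS replicate 1 came nearest to the exosome groups. Relative to PBS, the log2 fold change was 0.52 ± 0.085 in EKO_exo and 0.56 ± 0.084 in WT_exo. EKO_exo minus WT_exo was -0.04 ± 0.083 (interval -0.21 to 0.13, adjusted p = 0.959). Lad1, Ccdc141 and Tbc1d30 were called against PBS in both exosome groups under every alternative setting that left out no more than 1 library. The settings refit the libraries on which the genes were chosen, so these calls are no independent support.

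Serpine2 encodes protease nexin-1, a secreted serpin that inhibits thrombin, urokinase and tissue plasminogen activator (chr1:79794197-79861180, minus strand). Its levels were 16.5, 10.2 and 9.50 CPM in EKO_exo and 15.6, 14.8 and 11.1 CPM in WT_exo, against 7.71, 7.40 and 6.23 CPM in PBS. All exosome libraries were above PBS, but EKO_exo replicate 1 stood well above the other EKO_exo cultures. The coefficient of variation in EKO_exo was 32%, where counting error alone gives 5.44%. Serpine2 had the highest fold change of the 9, with a log2 fold change over PBS of 0.76 ± 0.178 in EKO_exo and 0.96 ± 0.176 in WT_exo. In EKO_exo it was 0.47 without EKO_exo replicate 1, and the call was lost there and without PBS replicate 3. Between the exosome groups, EKO_exo minus WT_exo was -0.20 ± 0.171 (interval -0.55 to 0.16, adjusted p = 0.872), a difference about as large as its error.

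The RefSeq window of Serpine2 (GRCm38.p6, chr1:79858616-79858915, minus strand) lies inside the annotated span of the gene and is shown for its base composition. Its GC content of 77.7% is above that of 98.1% of all windows, and the GC box, in capitals, occurs 6 times.
Serpine2 promoter: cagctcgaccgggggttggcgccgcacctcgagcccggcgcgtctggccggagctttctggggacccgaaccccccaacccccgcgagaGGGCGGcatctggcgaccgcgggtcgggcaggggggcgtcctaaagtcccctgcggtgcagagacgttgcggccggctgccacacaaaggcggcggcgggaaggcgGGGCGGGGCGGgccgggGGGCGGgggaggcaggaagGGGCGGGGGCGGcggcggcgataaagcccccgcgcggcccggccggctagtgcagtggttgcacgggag
One pair of these matches shares a base. The GC box is in 35.7% of all windows and in those of 5 of the 7 members that matched the table.

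Phlda1 encodes a pleckstrin homology-like protein, TDAG51, first found in mouse T cell hybridomas as a gene induced by the T cell receptor (chr10:111506286-111508645, plus strand). It stood at 25.3, 24.2 and 25.9 CPM in EKO_exo and at 21.1, 23.0 and 20.8 CPM in WT_exo, against 15.1, 17.6 and 18.0 CPM in PBS. The 3 groups did not overlap, with EKO_exo above WT_exo and WT_exo above PBS. The log2 fold change over PBS was 0.57 ± 0.102 in EKO_exo and 0.36 ± 0.102 in WT_exo. The WT_exo call was lost with the replicate block and without any 1 of the PBS or WT_exo libraries, where the log2 fold change was 0.28 to 0.40. EKO_exo minus WT_exo was 0.22 ± 0.10 (interval 0.01 to 0.42), with an unadjusted p of 0.0410 and an adjusted p of 0.683, so it did not pass. Its exons share 727 bases, 33% of them, with the antisense gene Gm28592, which averaged 0.249 CPM in EKO_exo, 0.225 CPM in WT_exo and 0.135 CPM in PBS.

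L1cam encodes an immunoglobulin-family adhesion molecule of growing axons that binds itself and integrins (chrX:73853778-73896105, minus strand). It stood at 17.8, 15.6 and 13.8 CPM in EKO_exo and at 12.2, 12.3 and 12.3 CPM in WT_exo, against 11.2, 10.5 and 10.5 CPM in PBS. The 3 groups were again apart, but the WT_exo libraries lay much nearer to PBS than the EKO_exo libraries did. On the log2 scale the difference from PBS was 0.55 ± 0.125 in EKO_exo and 0.19 ± 0.126 in WT_exo, where L1cam was not called. The EKO_exo call was lost without EKO_exo replicate 1, at 0.45. Between the exosome groups, EKO_exo minus WT_exo was 0.36 ± 0.124 (interval 0.11 to 0.62, unadjusted p = 0.00683), and the adjusted p of 0.522 did not pass. L1cam shares 100 exonic bases with Arhgap4, a gene on the same strand, at 131 ± 0.801 CPM in EKO_exo, 119 ± 5.57 CPM in WT_exo and 122 ± 3.00 CPM in PBS.

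Arhgef4 encodes Asef, an exchange factor for CDC42 and RAC1 that is activated by the tumour suppressor APC (chr1:34678188-34813309, plus strand). It stood at 10.4, 12.9 and 17.2 CPM in EKO_exo and at 12.9, 11.2 and 11.6 CPM in WT_exo, against 8.10, 9.55 and 9.21 CPM in PBS. EKO_exo spanned the whole range of WT_exo, and its lowest library lay close to the highest of PBS. Relative to PBS, the log2 fold change was 0.59 ± 0.154 in EKO_exo and 0.41 ± 0.154 in WT_exo, where it was not called. In EKO_exo it was 0.37 without EKO_exo replicate 3, and the call was lost there and without any 1 PBS library. EKO_exo minus WT_exo was 0.18 ± 0.151 (interval -0.13 to 0.49, adjusted p = 0.867), and -0.04 without EKO_exo replicate 3. A second identifier with the symbol Arhgef4 had no counts in any library.

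Mturn encodes maturin, known in Xenopus from the differentiation of neural progenitors (chr6:54681624-54703851, plus strand). It stood at 18.9, 14.3 and 13.1 CPM in EKO_exo and at 12.3, 16.6 and 12.0 CPM in WT_exo, against 9.89, 10.1 and 11 CPM in PBS. EKO_exo replicate 1 and WT_exo replicate 2 were high within their groups, and the exosome groups overlapped. The log2 fold change over PBS was 0.58 ± 0.147 in EKO_exo and 0.39 ± 0.147 in WT_exo, where it was not called. In EKO_exo it was 0.40 without EKO_exo replicate 1, and the call was lost there and without PBS replicate 1 or 2. Between the exosome groups, EKO_exo minus WT_exo was 0.18 ± 0.145 (interval -0.12 to 0.48, adjusted p = 0.862).

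Mturn's RefSeq window (GRCm38.p6, chr6:54681374-54681673, plus strand) is shown as an example with several motifs. It held more kinds of motif than the windows of Lad1 and Serpine2, and as many as that of Hyls1, which is not printed. Capitals mark the cyclic AMP response element, the GC box, the CAAT box and the TATA box on either strand.
Mturn promoter: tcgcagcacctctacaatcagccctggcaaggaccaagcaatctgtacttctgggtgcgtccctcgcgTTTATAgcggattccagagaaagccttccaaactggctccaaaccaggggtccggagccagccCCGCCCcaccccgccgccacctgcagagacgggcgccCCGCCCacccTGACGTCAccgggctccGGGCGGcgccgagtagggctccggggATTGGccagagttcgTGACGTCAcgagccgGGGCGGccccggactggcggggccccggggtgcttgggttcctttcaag
The cyclic AMP response element occurs 2 times, at 72 to 65 and at 14 to 7 bases before the start, and is in 1.79% of all windows. None of the other 6 members with a window held it. The match describes these letters only.

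Hyls1 encodes a centriole protein required for cilium assembly and mutated in human hydrolethalus syndrome (chr9:35560820-35570398, minus strand). It stood at 25.9, 28.2 and 32.3 CPM in EKO_exo and at 31.2, 35.3 and 31.2 CPM in WT_exo, against 22.7, 21.0 and 25.5 CPM in PBS. EKO_exo replicate 1 lay just above PBS replicate 3, while WT_exo was clear of PBS. On the log2 scale the difference from PBS was 0.32 ± 0.10 in EKO_exo, where Hyls1 was not called, and 0.49 ± 0.099 in WT_exo. In EKO_exo it was called without EKO_exo replicate 1, at 0.39, and without PBS replicate 3. EKO_exo minus WT_exo was -0.17 ± 0.098 (interval -0.38 to 0.03, adjusted p = 0.760). Hyls1 shares 2618 exonic bases, 43.9% of its exons, with the antisense gene Pus3, and whether reads were counted by strand is not given in the sources used here. Pus3 averaged 36.6 ± 3.21 CPM in EKO_exo, 39.5 ± 1.57 CPM in WT_exo and 37.0 ± 2.62 CPM in PBS, and was called in no comparison.

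Between the exosome groups 0 of the 9 genes were called by edgeR, where 0.0341% of all genes were (0.0272% higher and 0.00681% lower). DESeq2 called 0 too, but gave an adjusted p for 1 of the 9 only, Lad1. At an unadjusted p under 0.05 there were 2, Phlda1 and L1cam, in edgeR and also 2 in DESeq2. The same pair had EKO_exo and WT_exo libraries that did not overlap, 2 of 9, and this lack of overlap held for 11.8% of all genes. The genes were chosen with libraries of both groups, and a p that misses the threshold does not show equal levels. EKO_exo had the higher mean for 6 genes, and WT_exo for Ccdc141, Serpine2 and Hyls1.

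**Figure D3:**
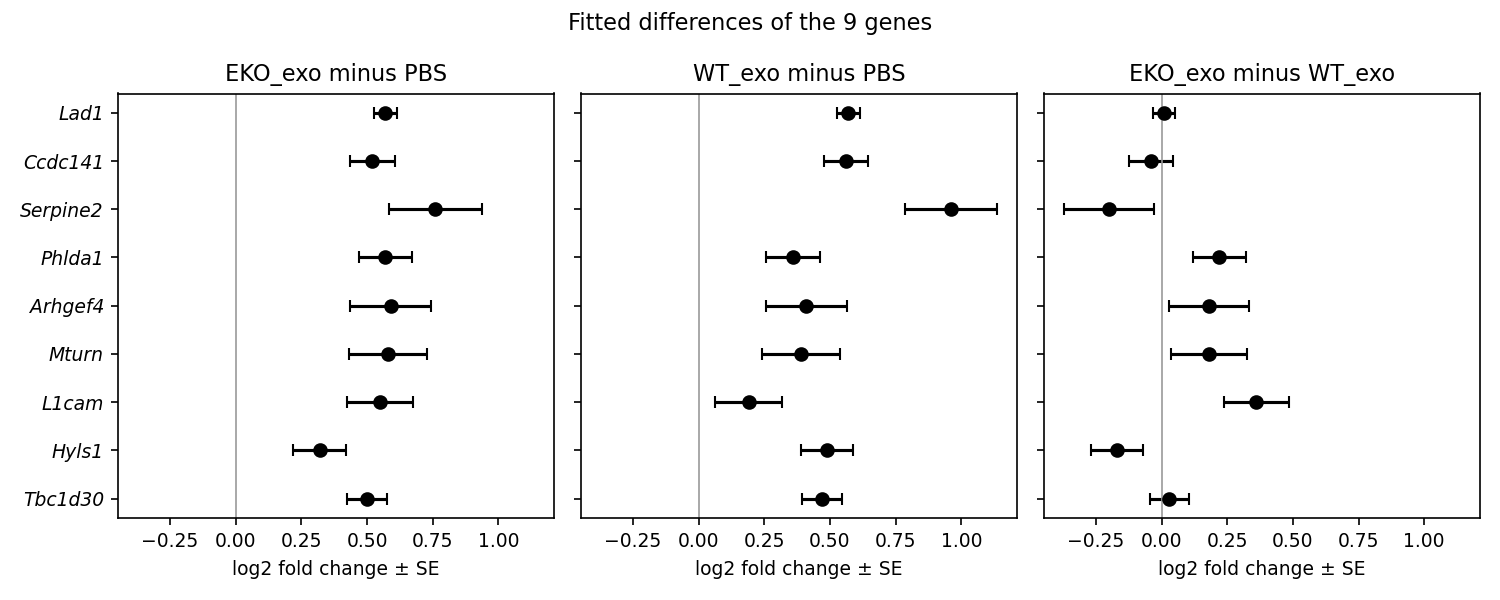
Log2 fold change ± SE of each gene in the 3 comparisons. Points against PBS lie above 0 for every gene, and the genes were chosen for being higher than PBS. EKO_exo minus WT_exo runs from -0.20 for Serpine2 to 0.36 for L1cam.

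Per kilobase of exon, Lad1 was far above the rest at 79.2 CPM per kb in EKO_exo, 78.9 CPM per kb in WT_exo and 53.3 CPM per kb in PBS. Phlda1 came next at 11.4, 9.81 and 7.66 CPM per kb in the same groups. In EKO_exo the order went on with Tbc1d30 at 6.70, Hyls1 at 4.83, Ccdc141 at 4.81, Mturn at 2.71, L1cam at 2.14, Serpine2 at 1.46 and Arhgef4 at 1.37 CPM per kb. Hyls1 and Ccdc141, and likewise Serpine2 and Arhgef4, lay closer to each other than their spread between replicates.

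The genes whose log2 CPM followed Lad1 most closely after Tbc1d30 were Irf8 (r = 0.989), Ccr7 (0.985), Cd69 (0.982) and Plk3 (0.969), out of 9209 candidates with at least 5 CPM. Irf8 encodes an interferon regulatory factor, Ccr7 a homing receptor for lymph nodes, Cd69 an early activation antigen and Plk3 a stress-response kinase. Their log2 fold changes over PBS were 0.27 in EKO_exo and 0.31 in WT_exo for Irf8, 0.29 and 0.31 for Ccr7, 0.23 and 0.21 for Cd69, and 0.28 and 0.26 for Plk3, all smaller than Lad1's. Plagl2 (r = 0.976) and Bcl11b (0.965) were nearest to Phlda1, and B2m (0.967) and E2f5 (0.957) to L1cam. Zfp62 (0.979) and Irf8 (0.962) were nearest to Ccdc141, Etfbkmt and Ankrd44 (0.958 each) to Serpine2, and Ttll3 (0.975) and Zfp263 (0.972) to Hyls1. Gdpd5 (0.955) and Piezo1 (0.951) were nearest to Arhgef4, and Ypel3 (0.963) and Sft2d1 (0.952) to Mturn. These are correlations over 9 libraries in 3 groups, so the difference from PBS that the genes were chosen for enters each r.

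Of 174 genes related to the 9 by family or pathway, 19 (10.9%) were called in EKO_exo and 12 (6.9%) in WT_exo, each against PBS and in either direction. Of all genes, 5.08% and 4.97% were called in those comparisons. The share over all genes depends on the filter. Limited to the 9566 genes averaging 5 CPM or more, 1003 were called in EKO_exo and 928 in WT_exo. No enrichment of the related genes is therefore read from these shares. Among 17 serpin and plasminogen genes beside Serpine2, 1 was higher and 3 lower in EKO_exo, and 1 higher and 2 lower in WT_exo, with median log2 fold changes of -0.14 and -0.18. Plaur, the urokinase receptor, rose by 0.42 ± 0.092 in EKO_exo (adjusted p = 0.00521) and by 0.36 ± 0.091 in WT_exo (adjusted p = 0.0183). Serpinb9, an inhibitor of granzyme B, averaged 62.8 ± 1.91 CPM in EKO_exo and 68.1 ± 1.62 CPM in WT_exo, against 79.7 ± 3.47 CPM in PBS. Its log2 fold change was -0.34 ± 0.059 in EKO_exo (adjusted p = 0.000441) and -0.23 ± 0.059 in WT_exo (adjusted p = 0.0183). Serpinb6b also fell in both groups, by 0.29 ± 0.085 in each (adjusted p = 0.0440 and 0.0431), but those calls were lost without any 1 PBS library. Serpinf1, which encodes the secreted factor PEDF, had 0, 0 and 0 counts in EKO_exo and 1, 5 and 10 counts in WT_exo, against 18, 13 and 16 counts in PBS. Against a floor of 3 counts over the group, Serpinf1 was at least 15-fold lower in EKO_exo than in PBS (adjusted p = 0.00617), and it was not called in WT_exo. With 1 EKO_exo library left (replicate 2) its adjusted p was 0.234. In WT_exo both Plaur and Serpinb9 lost the call without PBS replicate 1, PBS replicate 3 or WT_exo replicate 1, Plaur also without WT_exo replicate 2 and Serpinb9 also without WT_exo replicate 3, at adjusted p up to 0.117 and 0.129.

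Of 22 genes of ERK feedback and the PHLDA family beside Phlda1, 5 rose and 0 fell in EKO_exo. In WT_exo 3 rose and 0 fell. The medians were 0.10 in EKO_exo and 0.02 in WT_exo. Of all genes, 2.21% were called higher and 2.87% lower in EKO_exo, and 1.83% higher and 3.14% lower in WT_exo. Dusp5, a nuclear phosphatase that inactivates ERK, averaged 270.2 ± 13.1 CPM in EKO_exo and 269 ± 6.13 CPM in WT_exo, against 222 ± 7.98 CPM in PBS. It rose by 0.28 ± 0.041 in EKO_exo (adjusted p = 5.45e-05) and by 0.28 ± 0.041 in WT_exo (adjusted p = 5.84e-05), and was called under every alternative setting run. Ier5, an immediate early gene, rose by 0.30 ± 0.060 in EKO_exo and by 0.26 ± 0.060 in WT_exo. Myc, the growth transcription factor, rose by 0.14 ± 0.032 in EKO_exo and by 0.12 ± 0.032 in WT_exo. In EKO_exo the phosphatase genes Dusp2 and Dusp7 rose as well, by 0.21 ± 0.056 and 0.20 ± 0.056, with 0.14 and 0.08 in WT_exo, where neither passed. Without 1 library the number called higher was 2 to 5 in EKO_exo and 1 to 3 in WT_exo. The number called lower was then 0 in EKO_exo and 0 to 1 in WT_exo, and DESeq2 called 1 lower in WT_exo. Myc lost its call in EKO_exo without EKO_exo replicate 2 or PBS replicate 3, and in WT_exo without replicate 1 or 3 of PBS or replicate 1 or 2 of WT_exo (adjusted p up to 0.152 over the alternatives). Dusp2 in EKO_exo lost it without replicate 2 or 3 of EKO_exo or replicate 1 or 2 of PBS (up to 0.264), and Ier5 in WT_exo without PBS replicate 2 or WT_exo replicate 2 (up to 0.104). Phlda3, the other PHLDA gene named here, was at -0.08 in both groups and not called.

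Among 42 centriole and cilium genes beside Hyls1, 2 rose and 4 fell in EKO_exo, and 0 rose and 4 fell in WT_exo. The shares over all genes were 2.21% higher and 2.87% lower in EKO_exo, and 1.83% higher and 3.14% lower in WT_exo. Plk4, the kinase that starts centriole duplication, averaged 39.3 ± 2.37 CPM in EKO_exo and 37.1 ± 3.26 CPM in WT_exo, against 50.2 ± 0.234 CPM in PBS. Its log2 fold change was -0.35 ± 0.078 in EKO_exo and -0.44 ± 0.078 in WT_exo (adjusted p = 0.00550 and 0.000610). Cep152, which recruits PLK4, and Stil, which PLK4 phosphorylates, fell too, by 0.38 ± 0.069 and 0.34 ± 0.10 in EKO_exo and by 0.28 ± 0.068 and 0.42 ± 0.10 in WT_exo. In the same libraries Hyls1 itself stood at 0.32 over PBS in EKO_exo, not called, and at 0.49 in WT_exo. The other called genes were Pip5k1c and Cep97, higher in EKO_exo, Ccp110, lower in EKO_exo, and Poc1a, lower in WT_exo. Without 1 library 2 to 5 were called lower in either comparison, and 0 to 2 higher in EKO_exo and 0 to 1 in WT_exo. Plk4 was called in both groups under every alternative setting, while Stil in EKO_exo was lost without any 1 PBS or WT_exo library or EKO_exo replicate 1 or 2 (adjusted p up to 0.358 over the alternatives). In WT_exo, Stil was lost without PBS replicate 2 or WT_exo replicate 3 (up to 0.0836), and Cep152 without PBS replicate 1 or WT_exo replicate 1 or 2 (up to 0.108). Pip5k1c in EKO_exo was lost without EKO_exo replicate 1.

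In the families of Tbc1d30 and L1cam the counts called are to be read beside the 5.08% of all genes called in EKO_exo and the 4.97% in WT_exo. Of 42 TBC and RAB8 genes, 1 rose and 2 fell in EKO_exo, and 1 rose and 0 fell in WT_exo. Rab8b, which encodes a Rab GTPase close to RAB8A, rose by 0.12 ± 0.034 in EKO_exo and by 0.14 ± 0.034 in WT_exo, and was lost without PBS replicate 2 or 3 in either group. Tbc1d31 and Tbc1d9b fell in EKO_exo by 0.48 ± 0.110 and 0.20 ± 0.056. In WT_exo Tbc1d31 did not pass (edgeR adjusted p = 0.0684) but was called lower under some alternatives. Its log2 fold change there was -0.40 to -0.29 without 1 library. The EKO_exo call of Tbc1d31 went when EKO_exo replicate 3 or PBS replicate 1 was left out. Of 14 L1 family genes, Msn, which encodes the membrane linker moesin, rose in EKO_exo by 0.10 ± 0.026, and 0 were called in WT_exo by edgeR or DESeq2 (2 by each at an unadjusted p under 0.05). Msn and Tbc1d9b were lost without EKO_exo replicate 1 or 3 among others.

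The settings of Lad1 and Ccdc141 are to be read beside the same shares. Of 13 basement membrane and hemidesmosome genes, 0 were called in EKO_exo by the main edgeR fit or by DESeq2 (2 and 1 at an unadjusted p under 0.05). With no filter, with the filter at a mean of 5 CPM, or without EKO_exo replicate 3 or PBS replicate 3, edgeR called 1 higher. Plec, which encodes the cytoskeletal linker plectin, rose in WT_exo by 0.13 ± 0.036 (edgeR adjusted p = 0.0351). That call was lost without replicate 1 or 2 of PBS or replicate 2 or 3 of WT_exo (adjusted p up to 0.283 over the alternatives). Of 25 partners of CCDC141 in the DISC1, dynein and myosin II group, 0 were called in any comparison by edgeR, with 6 in EKO_exo and 5 in WT_exo against PBS, and 1 between the exosome groups, at an unadjusted p under 0.05. DESeq2 called 1 of them in EKO_exo and 0 in WT_exo. Between EKO_exo and WT_exo 0 of the 174 related genes were called by edgeR, and 0 of the 62 to which DESeq2 gave an adjusted p. At an unadjusted p under 0.05 there were 16 in edgeR and 17 in DESeq2.

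**Figure D4:**
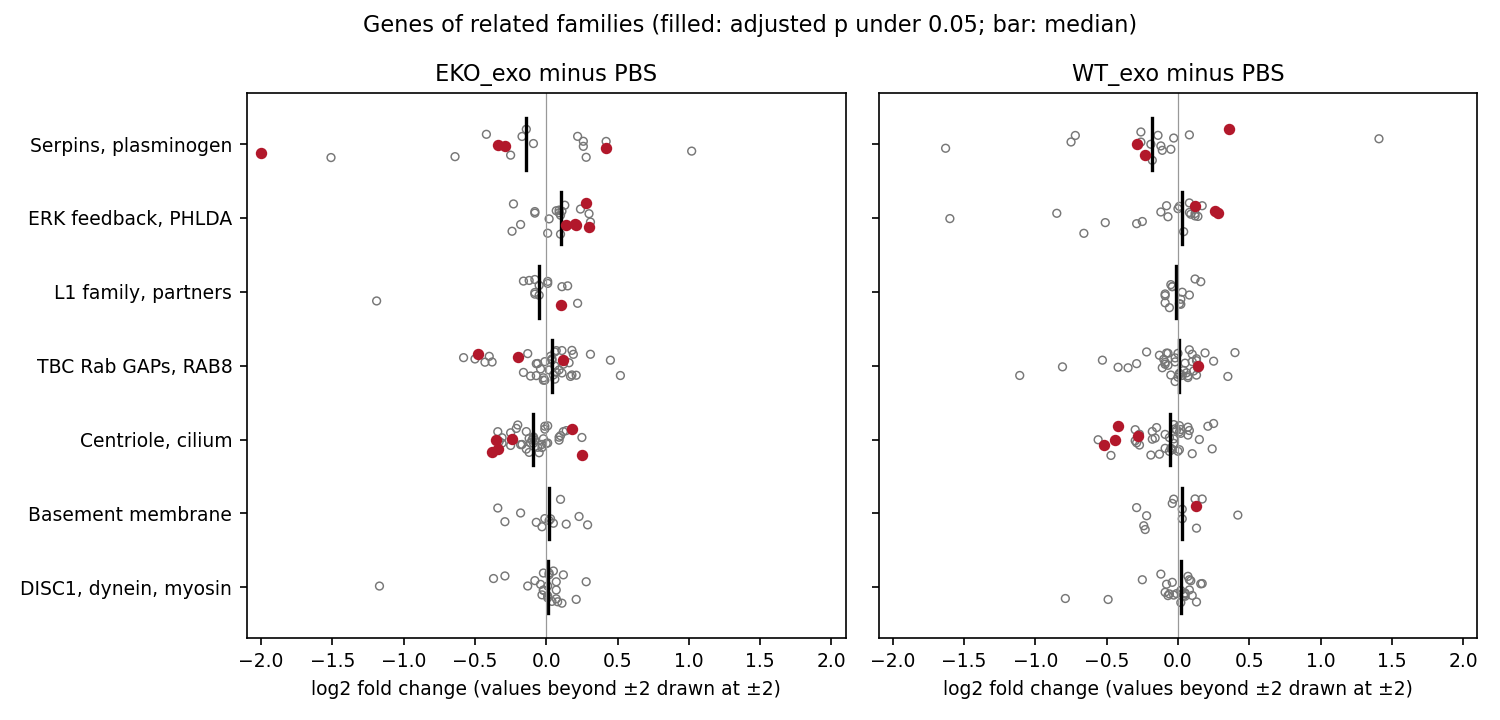
Log2 fold change over PBS of each tested gene (points) in the 7 families of related genes, for EKO_exo and WT_exo, with the 9 members left out. Most points lie near 0; the family medians run from -0.18 (serpins, WT_exo) to 0.10 (ERK feedback, EKO_exo).

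For the chromosomal neighbours too, 5.08% of all genes were called in EKO_exo and 4.97% in WT_exo. Of the 18 nearest tested genes on either side, 0 were called in EKO_exo, and in WT_exo 0 were higher and 1, Chek1, was lower (log2 fold change -0.28 ± 0.070, adjusted p = 0.0161). Chek1 encodes a DNA damage checkpoint kinase and lies 1138084 bases from Hyls1. Lad1 lies between Tnni1, 7609 bases away, and Tnnt2, 3012 bases away, which encode troponins of muscle. Tnni1 was at -0.08 ± 0.379 in EKO_exo and -0.32 ± 0.380 in WT_exo, and Tnnt2 at 0.18 ± 0.196 in EKO_exo and 0.46 ± 0.194 in WT_exo, with no call. Several neighbours had few reads and wide errors, Tnni1 at about 1.51 CPM in EKO_exo, 1.28 CPM in WT_exo and 1.6 CPM in PBS among them.

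**Figure D5:**
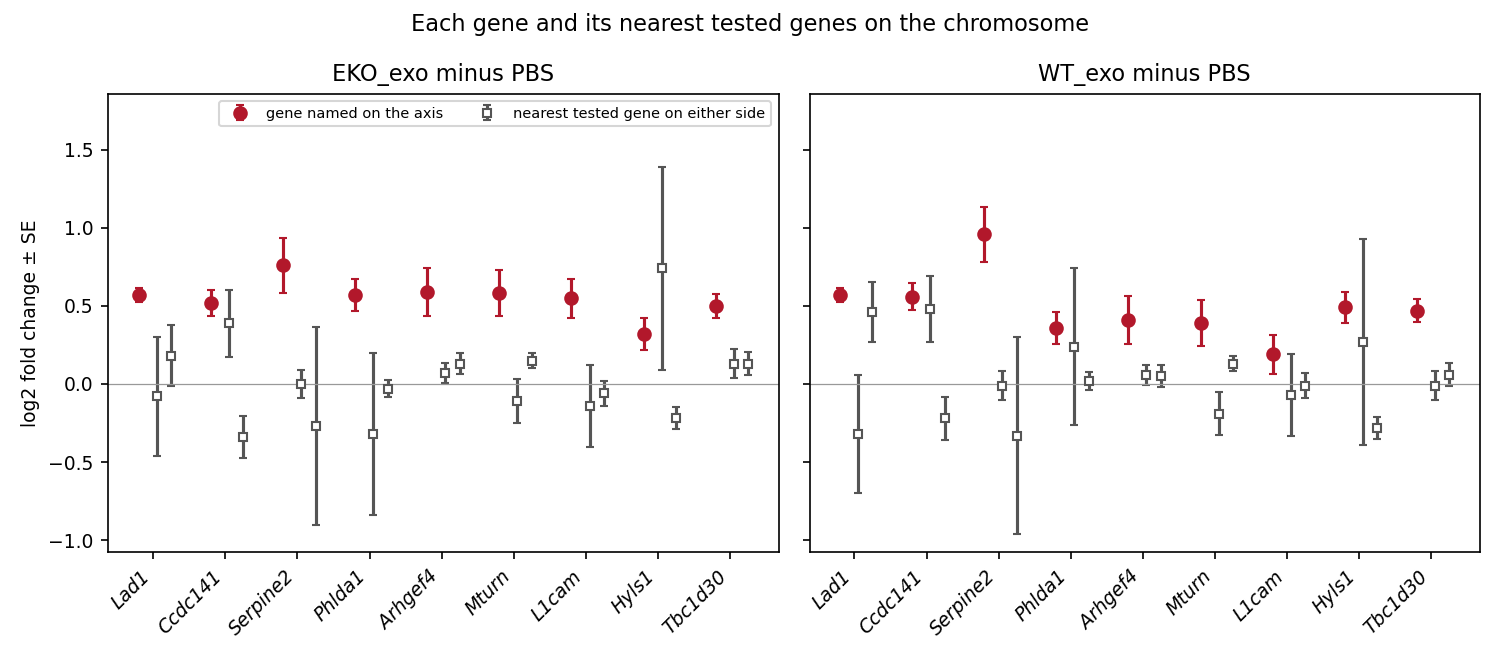
Log2 fold change over PBS ± SE of each of the 9 genes (red circles) and of the nearest tested gene on either side (open squares), in EKO_exo (left) and WT_exo (right). Among the neighbours only Chek1 beside Hyls1 was called, at -0.28 in WT_exo, and the widest bars belong to neighbours with few reads.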

How the data were processed

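RNA of 9 cultures was sequenced, 3 per group, and the authors deposited whole-number counts per gene without normalization. Alignment was with STAR 2.7.5c to GRCm38, per the submitters' processing notes. How reads were counted per gene (tool, strand, annotation) is not given in the sources used here. Symbols and positions came from GENCODE M21 (same build), which matched 55536 of 55536 identifiers, and promoter windows from RefSeq. The analysis used edgeR 4.0.16 under R 4.3.3, with filterByExpr (minimum count 10, minimum total 15), TMM scaling, 1 model of the 3 groups without covariates, and the quasi-likelihood F test with 6 residual and 21.1 prior degrees of freedom. A gene was called when its adjusted p (Benjamini-Hochberg over 14684 genes) was under 0.05; these genes hold at least 99.92% of each library's counts. CPM are relative to the TMM-scaled library size; ± is SD for levels and SE for log2 fold changes. Correlations used log2 CPM with a prior count of 2. The procedure was tested on simulated data.

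The 9 genes, the related families and the marker lists were chosen with earlier results of these data known. Named related genes are the 4 with the smallest p of each family; Dusp7, Phlda3, Cep97, Ccp110, Poc1a and Ctss were added outside that rule once their values had been seen. Groups came from the sample labels. Replicates are called biological in the design text without mention of separate mice, and p-values reflect only how these cultures vary. Pairs of libraries within a group had chi-square values of 5.03 to 9.08 per degree of freedom, so none was a duplicate. Alternatives were DESeq2 1.42.0, its size factors, other filters, a replicate block, fits of the 2 groups compared, and leaving out libraries. One further family of related genes is not reported here.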

Additional observations from a re-analysis of the deposited data

How the results depend on the processing

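Directions and calls were compared under up to 16 alternatives per result (fewer where DESeq2 gave no adjusted p), and no result reversed its direction while called. Leaving out 1 library at a time gave 6 to 8 of the 9 genes called in EKO_exo against PBS and 5 to 6 in WT_exo, with 0 between EKO_exo and WT_exo. Over all genes it gave 375 to 687 calls in EKO_exo (746 with all libraries), 399 to 870 in WT_exo (730) and 0 to 6 between the exosome groups (5). Over the related genes it gave 10 to 17 in EKO_exo (19) and 5 to 15 in WT_exo (12). Without EKO_exo replicates 1 and 3 the counts against PBS were 3 of the 9 genes, 5 related genes and 249 genes in all, and 0 genes between EKO_exo and WT_exo; that fit leaves 1 EKO_exo library, assumed to vary like the others. Hyls1 in EKO_exo was called under 5 of 16 alternatives. Between EKO_exo and WT_exo over all genes, DESeq2 called 32, a fit without a filter 28 and one limited to genes averaging 5 CPM or more 9; the cause was not tested. Deviations of log2 CPM from each group's mean, over genes averaging 5 CPM or more, were compared between same-numbered libraries. They correlated at -0.07 to 0.0186, so no shared shift by number was seen. With 3 libraries a group this cannot show whether cultures were paired. With the replicate block 614, 609 and 1 genes were called in EKO_exo against PBS, WT_exo against PBS and EKO_exo against WT_exo. The block changed 1 call among the 9 genes, that of Phlda1 in WT_exo. Between EKO_exo and PBS the members near 10 CPM had standard errors of 0.125 to 0.178; the spread of Serpine2 between EKO_exo cultures (32%) was well above counting error (5.44%).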

Other observations

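Of all genes, 161 were called higher than PBS in both exosome groups, and the comparisons share the PBS libraries. Ordered by the mean of both log2 fold changes among those with at least 5 CPM, Serpine2, Lad1, Ccdc141, Tbc1d30 and Phlda1 take the first 5 places, which only describes genes chosen on these libraries. The next 5, named after their values were seen, include known immune and transcription genes. Tnfsf11, the cytokine RANKL, averaged 22.4 ± 1.17 CPM in EKO_exo and 23.1 ± 1.81 CPM in WT_exo, against 16.7 ± 2.27 CPM in PBS (log2 fold changes 0.43 ± 0.110 and 0.47 ± 0.109, edgeR adjusted p = 0.0193 and 0.00821). Klf3, a repressor of the Krüppel-like family, averaged 74.6 ± 7.55 CPM in EKO_exo and 67.5 ± 4.87 CPM in WT_exo, against 53.4 ± 4.11 CPM in PBS (0.48 ± 0.075 and 0.34 ± 0.075). Resf1, a silencer of retroelements, averaged 153 ± 13.1 CPM in EKO_exo and 157 ± 1.46 CPM in WT_exo, against 115 ± 9.86 CPM in PBS (0.41 ± 0.057 and 0.45 ± 0.057). Ap5b1, a subunit of the adaptor complex AP-5, rose by 0.44 ± 0.096 in each group, and Calcoco1 by 0.41 ± 0.075 in each.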
